A study of Homo sapiens with 12 samples.

Results

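Laminins are large matrix glycoproteins made of an alpha, a beta and a gamma chain, and they form the sheet of the basement membrane on which many cells rest. Integrins are membrane receptors made of an alpha and a beta subunit, which bind laminins, fibronectin, collagens or vitronectin outside the cell and couple to actin through talin and other adaptors inside it. Pairs of ITGA3 or ITGA6 with ITGB1, and of ITGA6 with ITGB4, are laminin receptors, and ITGA5 with ITGB1 is the classical fibronectin receptor. The laminin and integrin genes were taken as the rows of the count table whose name has LAMA, LAMB or LAMC and a digit, or ITGA or ITGB and 1 to 3 further characters. That rule found 41 of 58684 rows. They comprised 12 laminin chains, 26 integrin subunits and 3 rows matched by name only, namely ITGBL1 (a secreted integrin-like protein), ITGB3BP (a centromere protein) and the pseudogene ITGB1P1.

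The RNA came from U2OS cells, an established human osteosarcoma line, made stable for Flag-tagged eIF4E or for the empty vector. eIF4E is a translation factor and binds the methylated guanosine (m7G) cap with which mRNAs begin, and the study asked whether it raises the share of transcripts that carry this cap. From each kind of cell, input RNA and RNA precipitated with a cap antibody (Cap IP) were sequenced, which gave vector input, eIF4E input, vector Cap IP and eIF4E Cap IP with 3 libraries each. The labels do not say whether the stable lines were clones, how much eIF4E protein they made or whether the libraries of a group came from separate cultures, so p-values measure the spread between these libraries. Titles of an input and a Cap IP library share a stem, and libraries that share one are called a culture here.

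Libraries held 1206321 to 1813486 counts. Levels are CPM (counts scaled to the library total) after TMM scaling of that total, on which 3 counts stood for 1.19 to 3.15 CPM. EIF4E itself stood at 4.81 to 9.70 CPM in vector input and at 11.9 to 15.4 CPM in eIF4E input, without overlap, at a log2 difference of 0.98 ± 0.36 (SE, adjusted p = 0.231, edgeR), so its direction followed the labels while the test was not passed. Of 9 mesenchymal and osteosarcoma markers 5 were abundant enough to test, TWIST1 was at 0, and their summed level lay between 1560 and 2260 CPM in input and between 1020 and 2390 CPM in Cap IP. Epithelial markers, mostly KRT8, summed to 1370 to 2260 CPM in vector input, 2460 to 4000 in eIF4E input, 3050 to 4670 in vector Cap IP and 4910 to 6590 in eIF4E Cap IP. Their part in the differences below was not tested. Leukocyte markers summed to 3.19 to 9.92 CPM with CD14 at 0, and all 3 platelet markers were at 0. Endothelial markers summed to 9.05 to 10.5 CPM in vector input, 6.33 to 26.0 in eIF4E input, 9.72 to 13.4 in vector Cap IP and 15.4 to 44.4 in eIF4E Cap IP. Muscle markers, mostly MYH11, summed to 98.7 to 192 CPM over all libraries, while DES and MYOD1 had 8 and 2 counts in total. The part of endothelial and muscle markers was not tested either. In RNA from whole cultures, fewer cells that express a gene and less RNA per cell cannot be told apart.

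The promoters of 6 genes on which the Cap IP comparison turns are shown. They lie just before an annotated start, so they are not part of the RNA that begins and is capped there. LAMA5, LAMB2, LAMC1 and ITGA5 were lower in Cap IP than in input in both kinds of cells, ITGA10 was higher in both, and ITGB1 was higher in eIF4E cells. Each line holds the 100 bases before a RefSeq start (GRCh38.p14), read 5′ to 3′ along the gene, with every GC box (GGGCGG or its reverse complement CCGCCC, the letters bound by SP1-type factors) in capitals.
LAMA5, chr20:62367313-62367412, minus strand: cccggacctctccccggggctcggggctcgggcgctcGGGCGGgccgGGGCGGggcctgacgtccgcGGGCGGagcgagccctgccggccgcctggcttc
LAMB2, chr3:49133051-49133150, minus strand: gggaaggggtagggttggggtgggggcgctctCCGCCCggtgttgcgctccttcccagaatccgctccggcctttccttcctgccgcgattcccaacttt
LAMC1, chr1:183023320-183023419, plus strand: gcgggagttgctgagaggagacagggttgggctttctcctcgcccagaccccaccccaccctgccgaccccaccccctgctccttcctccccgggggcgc
ITGA5, chr12:54419267-54419366, minus strand: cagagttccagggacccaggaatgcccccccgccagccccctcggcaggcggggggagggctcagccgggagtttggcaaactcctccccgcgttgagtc
ITGA10, chr1:145910051-145910150, minus strand: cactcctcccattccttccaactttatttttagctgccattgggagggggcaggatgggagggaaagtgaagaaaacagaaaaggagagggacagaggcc
ITGB1, chr10:32958231-32958330, minus strand: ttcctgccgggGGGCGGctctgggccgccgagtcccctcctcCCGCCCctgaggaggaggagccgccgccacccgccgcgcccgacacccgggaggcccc

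Over the full RefSeq window of 300 bases (250 before to 50 after the start), LAMA5 was 82.7% G or C and held 5 GC boxes, LAMC1 79.0% and 3, ITGB1 78.3% and 3, ITGA5 69.3% and 1, LAMB2 58.7% and 1, and ITGA10 48.7% and 0. ITGB1 has 2 promoters in the table, and the one not shown was 40.7% G or C, with 0 GC boxes and the letters TATAAA. The one shown lies inside the annotated span of the gene (32887273 to 33005792), not at its 5′ end. The stretches shown for LAMB2 and ITGA10 partly overlap the annotated spans of those genes (49121114 to 49133118 and 145891208 to 145910111). RefSeq gave a promoter for 28 of the 41 rows and for 17 of the 24 tested ones, 5 of which have more than 1. A GC box on either strand was found in 17 of the 24 promoters of tested genes, against 45.0% of all 35116 promoters in the table. Promoters of 1 gene can overlap and share a box, as for LAMB3, so these 24 are not independent. Among the 10 genes lower in Cap IP in both kinds of cells, 7 had a promoter in the table and 6 of those had a GC box, beside 12 of the 17 tested genes with a promoter. The TATA box letters TATAAA were found in 2 of these 17 genes (11.5% of all promoters hold them), and TGACTCA, the letters of an AP-1 site, in 2 (4.95%). A gene was counted if any of its promoters held the letters, while the shares over all are of single promoters, so the measures differ. The median share of G and C was 61.3% over the promoters of the tested genes and 58.7% over all. These matches describe the letters only.

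Of the 41 rows, 24 had enough counts to be tested. They were 8 laminin chains (among them LAMA1, LAMA5, LAMB1, LAMB2, LAMB3, LAMC1 and LAMC3), 10 integrin alpha subunits (ITGA2, ITGA3, ITGA5, ITGA6, ITGA7, ITGA9, ITGA10, ITGA11, ITGAE and ITGAV), 5 integrin beta subunits (ITGB1, ITGB4, ITGB5, ITGB7 and ITGB8) and ITGBL1. Their totals over the 12 libraries ran from 92 counts for LAMC3 to 5064 for ITGA3, and all 41 rows held 0.128% of the counts. The other 17 rows had at most 65 counts in total, and ITGB6 and LAMB4 had 0. Integrin subunits known from blood cells were among them, with 7 counts for ITGAL, 7 for ITGAM, 16 for ITGAX, 65 for ITGAD, 12 for ITGA4 and 36 for ITGB2, as were the platelet pair ITGA2B with 41 and ITGB3 with 12. LAMA2 had 65 counts, 31 of them in 1 vector input library. LAMA3, the alpha chain that pairs with LAMB3 in the laminin of epithelial basement membranes, had 16, LAMA4 had 20, and ITGA1, ITGA8, ITGB3BP and ITGB1P1 had 4, 3, 10 and 2.

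Per kilobase of exon, ITGA3 was highest in vector input at 22.4 ± 5.10 CPM per kilobase (SD, n = 3), ahead of LAMB3 at 19.9 ± 8.42, ITGB5 at 14.9 ± 6.29, LAMA5 at 13.6 ± 3.11, LAMB2 at 13.3 ± 4.61 and LAMC1 at 12.6 ± 2.91. ITGB1, the common partner of most alpha subunits, was seventh in that order at 7.96 ± 3.37 CPM per kilobase. ITGAV at 0.620 ± 0.258 and LAMC3 at 0.418 ± 0.0880 were lowest. In 22 of the 23 neighbouring pairs of this order the libraries overlapped, so most neighbours did not differ beyond their spread. LAMA1 over ITGA6 was the exception. These ranks depend on the exon length, which joins all annotated exons of a gene and can exceed any single transcript. It was 14561 bases for ITGB1 and 19336 for ITGAV, whose longest annotated transcripts have 5614 and 7951. For LAMB3 it was 4647 beside 4305. ITGB1 and ITGAV are thus set lower than by transcript length, and an order by that length was not made. In eIF4E input, ITGA3 (48.8 ± 18.5) and LAMB3 (47.0 ± 20.6) again led, ahead of LAMA5 (22.2 ± 7.95). In vector Cap IP the order began with ITGB1 (10.2 to 15.2 over the 3 libraries), ITGB5 at 10.3 ± 5.97, LAMB3 at 9.05 ± 3.20 and ITGA3 at 8.94 ± 3.26, whose libraries overlapped. LAMA5 was eleventh there, at 1.73 ± 0.677.

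**Figure D1:**
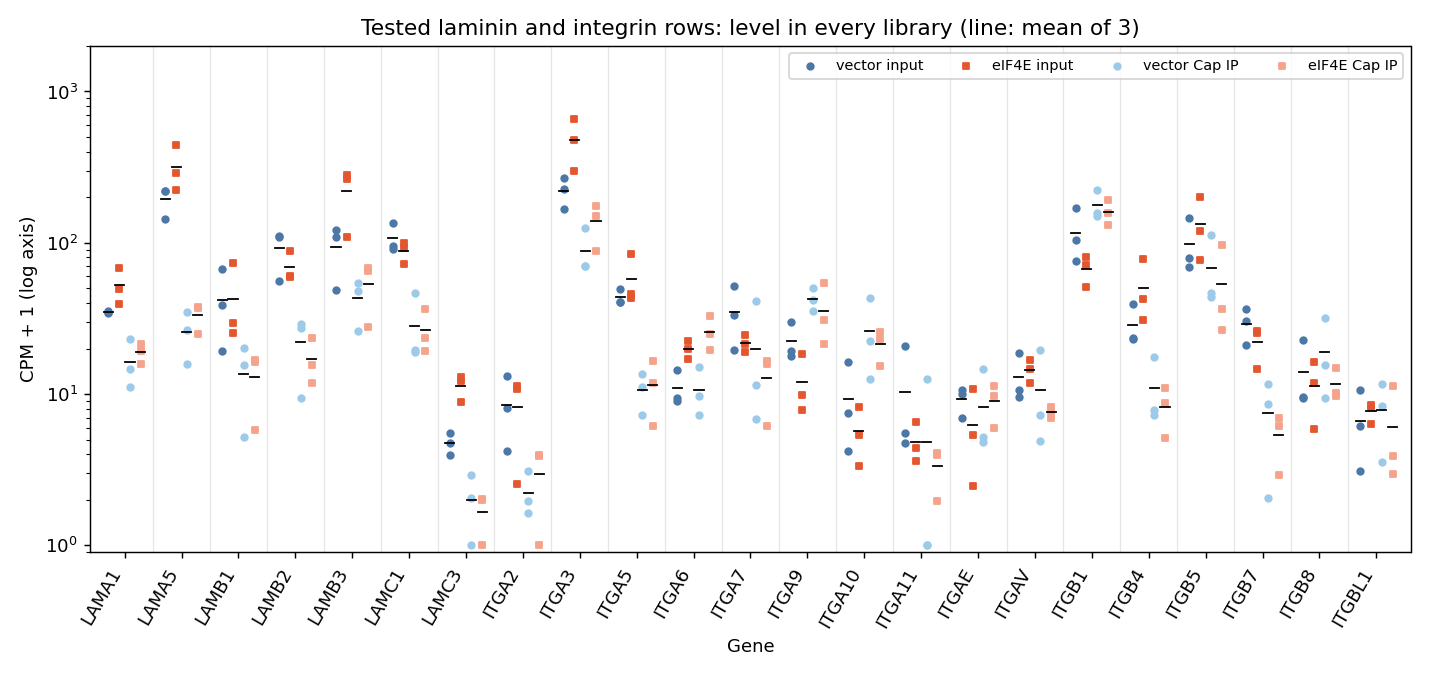
Level of 23 of the 24 tested laminin and integrin rows in all 12 libraries, as CPM + 1 on a log axis, with a line for the mean of the 3 libraries of each group. The means of the laminin chains plotted are lower in Cap IP than in input, as for LAMA5 (143 to 443 CPM in input, 14.7 to 36.7 in Cap IP), while ITGA10 and ITGB1 are not.

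Cap IP was compared with input within each kind of cell to see which of these transcripts were less or more common in the capped fraction. Laminin chains were mostly lower. In vector cells 6 of 8 tested chains were lower in Cap IP and none higher, with a median log2 difference of -1.78, and in eIF4E cells 7 of 8 were lower, with a median of -1.93. All 8 were below 0 in both. Integrins were split. In vector cells 5 of 15 subunits were lower and 1 higher (median -0.52), and in eIF4E cells 5 were lower and 3 higher (median -0.79).

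Over the 24 tested rows, 11 were lower and 1 higher in vector cells, where edgeR's quasi-likelihood test called 39.5% of all 12460 tested genes at an adjusted p under 0.05, with 21.0% lower and 18.5% higher. In eIF4E cells 12 were lower and 3 higher, beside 45.1% of all genes called, with 23.3% lower and 21.9% higher. The median difference of the 24 rows was -1.11 in vector cells and -1.42 in eIF4E cells, and that of all genes was -0.04 and -0.13. Without vector input replicate 3 the vector median was -0.66. In the vector libraries the residuals of an input and a Cap IP library of 1 culture moved together, and with the culture as a block 3 rows were higher and 13 lower: the 12 calls were kept and ITGA9 (0.98 ± 0.29), ITGB1 (0.65 ± 0.25), ITGB5 (-0.58) and ITGA7 (-0.98) were added. Total counts in place of TMM as library sizes shifted the median of all genes by -0.74 in vector cells and -0.85 in eIF4E cells. On that scale 0 rows were higher and 14 lower in vector cells, and 0 higher and 16 lower in eIF4E cells, while over all genes 738 were higher and 5013 lower, and 1101 higher and 5866 lower. With TMM those were 2308 and 2613, and 2726 and 2899.

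LAMA5, on chromosome 20 (62307955 to 62367312, GRCh38, minus strand), encodes the alpha chain of the laminins most widespread in adult basement membranes. It stood at 219, 143 and 220 CPM in vector input and at 34.0, 14.7 and 25.5 CPM in vector Cap IP. In eIF4E cells it stood at 288, 221 and 443 CPM in input and at 35.9, 24.1 and 36.7 CPM in Cap IP. Every input library was far above every Cap IP library. The log2 difference was -2.96 ± 0.35 (adjusted p = 6.61e-06) in vector cells and -3.30 ± 0.35 (adjusted p = 1.86e-06) in eIF4E cells, which was the lowest p among the laminin and integrin rows in both.

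LAMA1, the alpha chain of the laminin of early embryos (chromosome 18, 6941742 to 7117797), was less reduced. Its input levels were 33.6, 33.7 and 34.6 CPM in vector cells and 48.6, 67.0 and 38.4 CPM in eIF4E cells, and its Cap IP levels were 13.6, 22.1 and 10.2 CPM and 20.5, 18.3 and 14.9 CPM. Input and Cap IP did not overlap in either kind of cell. It was lower in Cap IP by a log2 difference of -1.18 ± 0.34 (adjusted p = 0.00990) in vector cells and -1.52 ± 0.34 (adjusted p = 0.00118) in eIF4E cells.

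The beta chains LAMB1 and LAMB2, which alternate in laminins of most tissues, were both lower. LAMB2 (chromosome 3, 49121114 to 49133118) stood at 109, 54.5 and 110 CPM in vector input against 26.3, 8.41 and 28.1 in vector Cap IP, and at 59.7, 58.7 and 87.2 in eIF4E input against 22.6, 14.5 and 10.9 in eIF4E Cap IP. The groups did not overlap, and the log2 differences were -2.09 ± 0.39 (adjusted p = 3.82e-04) and -2.10 ± 0.41 (adjusted p = 4.02e-04). LAMB1 (chromosome 7, 107923799 to 108003213) varied more between libraries of a group, at 38.1, 18.2 and 65.8 CPM in vector input and 14.6, 4.20 and 19.2 in vector Cap IP, where the lowest input library lay below the highest Cap IP library. In eIF4E cells its levels were 72.3, 28.3 and 24.4 CPM in input against 15.4, 4.83 and 15.9 in Cap IP, without overlap. Its differences were -1.63 ± 0.54 (adjusted p = 0.0213) and, in eIF4E cells, -1.80 ± 0.56 (adjusted p = 0.0126).

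LAMB3 (chromosome 1, 209614870 to 209652425), the beta chain of the epithelial laminin, stood at 47.8, 109 and 121 CPM in vector input against 25.3, 47.3 and 53.6 in vector Cap IP, which overlapped. In eIF4E cells it stood at 108, 265 and 281 CPM in input against 26.7, 63.7 and 67.4 in Cap IP, which did not. The log2 differences were -1.13 ± 0.42 (adjusted p = 0.0389) and -2.05 ± 0.42 (adjusted p = 6.75e-04).

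Among the gamma chains, LAMC1 (chromosome 1, 183023420 to 183145592) is part of most laminins. LAMC1 stood at 94.4, 89.8 and 134 CPM in vector input and 18.5, 17.9 and 45.3 in vector Cap IP, and at 98.8, 91.9 and 71.1 in eIF4E input and 22.6, 18.3 and 35.7 in eIF4E Cap IP. No groups overlapped, and the differences were -1.92 ± 0.36 (adjusted p = 3.33e-04) and -1.77 ± 0.36 (adjusted p = 5.95e-04). LAMC3 was near the floor in Cap IP, at 1.94, 1.05 and 0 CPM in vector cells and 1.03, 0 and 0.992 CPM in eIF4E cells. Its input levels were 4.53, 3.74 and 2.95 CPM and 7.91, 11.2 and 11.9 CPM. It passed in eIF4E cells (-3.81 ± 0.82, adjusted p = 9.29e-04), and its value in vector cells was -1.99 ± 0.84 (adjusted p = 0.0661).

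ITGA3 and ITGA5 were lower in Cap IP in both kinds of cells, while ITGA7, another laminin-binding alpha subunit, did not pass (-0.78 ± 0.50, adjusted p = 0.227, and -0.79 ± 0.55, adjusted p = 0.249). ITGA3 (chromosome 17, 50055968 to 50090481), the alpha subunit of a laminin receptor, stood at 167, 227 and 266 CPM in vector input and 69.0, 69.4 and 124 in vector Cap IP. Its levels in eIF4E cells were 298, 476 and 661 CPM in input and 87.2, 150 and 175 in Cap IP. Its log2 differences were -1.32 ± 0.35 (adjusted p = 0.00536) and -1.80 ± 0.35 (adjusted p = 3.71e-04), without overlap. ITGA5 (chromosome 12, 54395261 to 54419266), of the fibronectin receptor, stood at 39.4, 39.6 and 48.5 CPM in vector input and 12.6, 6.31 and 10.2 in vector Cap IP, and at 42.3, 45.0 and 83.1 in eIF4E input and 5.13, 15.5 and 10.9 in eIF4E Cap IP. Here too the groups were apart, by -2.11 ± 0.40 (adjusted p = 3.83e-04) and -2.42 ± 0.40 (adjusted p = 8.0e-05). ITGA2, of a collagen receptor, had few reads, at 3.21 to 12.2 CPM in vector input and 0.638 to 2.10 CPM in vector Cap IP. It passed in vector cells (-2.65 ± 0.90, adjusted p = 0.0235) and stood at -1.85 ± 0.83 in eIF4E cells (adjusted p = 0.0765).

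ITGB4, the beta subunit that ITGA6 pairs with in hemidesmosomes, was lower in both, from 22.0, 22.4 and 38.4 CPM in vector input to 6.81, 6.31 and 16.6 in vector Cap IP, and from 30.0, 41.5 and 76.8 in eIF4E input to 4.10, 7.73 and 9.92 in eIF4E Cap IP. The groups did not overlap, at -1.41 ± 0.45 (adjusted p = 0.0166) and -2.75 ± 0.47 (adjusted p = 1.25e-04). Its partner ITGA6 did not pass, with values of -0.01 and 0.39. ITGB5, which pairs with ITGAV in a vitronectin receptor, overlapped between fractions in both kinds of cells and passed in eIF4E cells at -1.33 ± 0.47 (adjusted p = 0.0263), beside -0.52 ± 0.46 in vector cells (adjusted p = 0.385). ITGB7, known from lymphocytes, was lower by -2.09 ± 0.49 (adjusted p = 0.00219) and -2.27 ± 0.54 (adjusted p = 0.00205), from 13.7 to 35.4 CPM in the 6 input libraries to 1.05 to 10.7 CPM in the 6 Cap IP libraries. Exons of ZNF740 lie opposite 42.3% of its exon length, and ZNF740, with 329 counts beside 346 for ITGB7, stood at -0.82 ± 0.40 and -0.86 ± 0.41.

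The integrins that were higher in Cap IP were ITGA10, a collagen-binding alpha subunit known from cartilage, ITGA9, which binds tenascin, and ITGB1, with which both pair. ITGA10 (chromosome 1, 145891208 to 145910111) stood at 6.46, 3.21 and 15.2 CPM in vector input and 21.4, 11.6 and 42.1 in vector Cap IP, which overlapped, and at 2.37, 4.40 and 7.27 in eIF4E input and 14.4, 22.2 and 24.8 in eIF4E Cap IP, which did not. The log2 differences were 1.58 ± 0.52 (adjusted p = 0.0196) and 2.15 ± 0.56 (adjusted p = 0.00446). ITGB1 (chromosome 10, 32887273 to 33005792) stood at 103, 74.3 and 170 CPM in vector input and 149, 157 and 221 in vector Cap IP, a difference of 0.60 ± 0.31 (adjusted p = 0.130). In eIF4E cells it stood at 79.1, 70.4 and 49.8 CPM in input and 131, 156 and 190 in Cap IP, without overlap, a difference of 1.26 ± 0.32 (adjusted p = 0.00313). ITGA9 differed by 0.96 ± 0.39 in vector cells (adjusted p = 0.0543) and by 1.61 ± 0.41 in eIF4E cells (adjusted p = 0.00343). With total counts as library sizes none of these passed, at 0.89 and 1.34 for ITGA10, 0.20 and 0.73 for ITGA9, and -0.14 and 0.40 for ITGB1, whose direction in vector cells thus turned.

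Both kinds of cells shared 10 of their 11 and 12 lower calls, namely ITGA3, ITGA5, ITGB4, ITGB7, LAMA1, LAMA5, LAMB1, LAMB2, LAMB3 and LAMC1, and ITGA10 was higher in both. The rows that passed in neither numbered 8, among them ITGA6, ITGA7, ITGA11, ITGAE, ITGAV, ITGB8 and ITGBL1. Taken culture by culture, as log2 of Cap IP over input with 2 CPM added to each, 13 rows lay below 0 in all 6 cultures (7 laminins and 6 integrins), 3 lay above 0 in all 6 (ITGA9, ITGA10 and ITGB1) and 8 were mixed. The same count was not made over all genes, of which 39.5% in vector and 45.1% in eIF4E cells were called for Cap IP against input. It therefore does not show that these rows differ from genes at large.

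**Figure D2:**
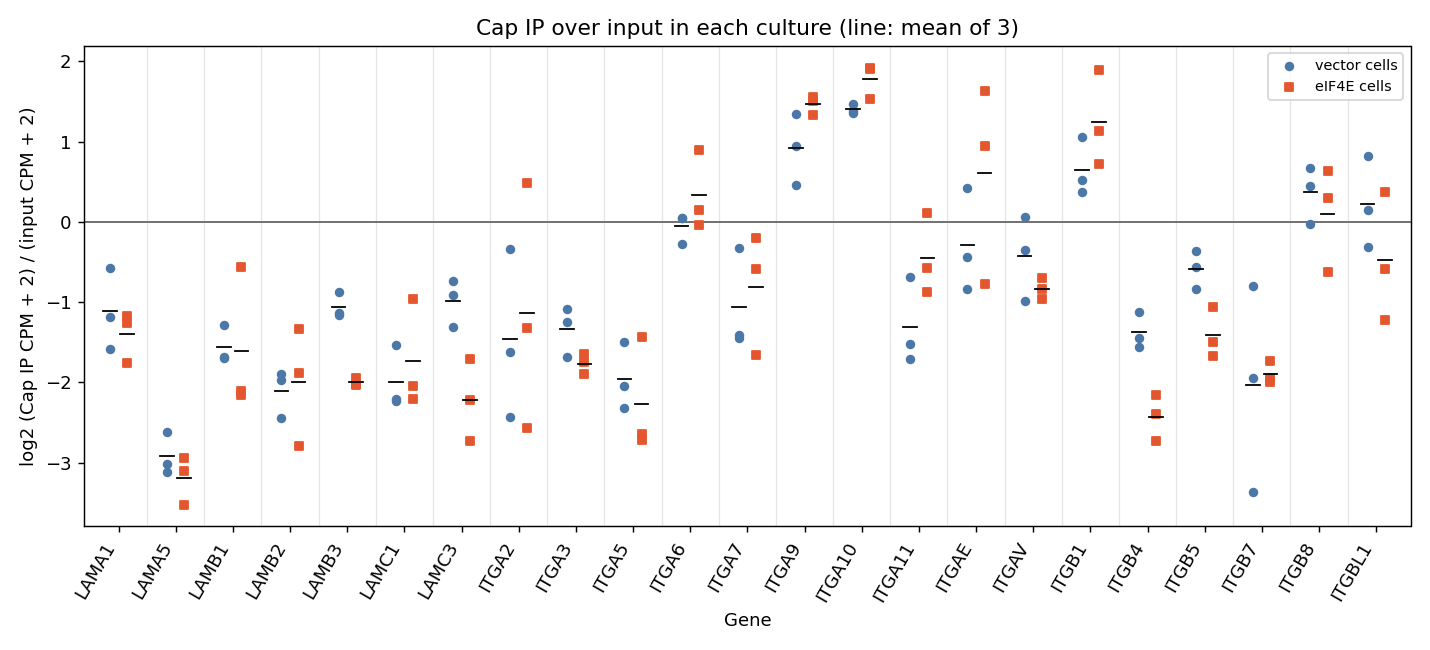
Log2 of (Cap IP CPM + 2) over (input CPM + 2) in each of the 6 cultures for 23 of the 24 tested rows, with a line at the mean of 3 cultures and a horizontal line at 0. LAMA5 lies lowest among the laminins, between -3.52 and -2.62, and ITGA10 lies between 1.36 and 1.92; with total counts as library sizes ITGA10 stays above 0 in the fit, but ITGB1 in vector cells falls to -0.14.

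LAMA5, LAMB2, LAMC1, ITGA3, ITGA5 and ITGB7 were called lower in both kinds of cells without any 1 of the 6 libraries compared. In vector cells LAMB1 was not called without Cap IP replicate 2 or input replicate 3 (highest adjusted p over the 6 leave-outs 0.141), and LAMA1 not without Cap IP replicate 3 (0.0601). LAMB3 was not called without Cap IP replicate 1 or 2 or input replicate 2 or 3 (0.159), ITGB4 not without Cap IP replicate 1 or 2 or input replicate 3 (0.0883), and ITGA2 not without Cap IP replicate 1 or 3 or input replicate 3 (0.120). ITGA10 was not called without input replicate 1 or 2 or Cap IP replicate 3 (0.188), and the number of rows called higher in vector cells was 0 without input replicate 2, 0 without Cap IP replicate 3 and 2 without input replicate 3. In eIF4E cells LAMB1 was not called without input replicate 1 or Cap IP replicate 2 (0.107), and ITGB5 not without Cap IP replicate 1 or 2 or input replicate 3 (0.156).

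Long transcripts were on the whole lower in Cap IP. Across the 8814 protein-coding genes tested, the log2 difference had a Spearman correlation with the length of the longest annotated transcript of -0.36 in vector cells and -0.25 in eIF4E cells. The 23 tested laminin and integrin subunits, between 2806 and 11426 bases, had a median length of 5816 bases, beside 3970 for all these genes. Among the 23 the correlation was -0.12 and -0.05. These correlations are across genes of the same libraries, and the part of length in the differences was not tested.

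Partners of the laminins and integrins were described from lists, to be read beside all genes tested for Cap IP against input. Over all genes 21.0% were lower and 18.5% higher in vector cells, with a median of -0.04. In eIF4E cells 23.3% were lower and 21.9% higher, with a median of -0.13. Of 15 basement membrane partners, all tested, 8 were lower and 0 higher in vector cells (median -1.30), and 12 lower and 0 higher in eIF4E cells (median -1.75). HSPG2, the heparan sulphate proteoglycan perlecan, differed by -4.52 ± 0.36 (adjusted p = 6.34e-08) and -4.26 ± 0.34 (adjusted p = 5.99e-08). AGRN (agrin, -2.63 and -2.95) and DAG1 (dystroglycan, a laminin receptor, -1.90 and -2.19) were also lower in both. Of 22 integrin ligands other than laminins 16 were tested. In vector cells 8 were lower and 0 higher (median -1.59), and in eIF4E cells 10 were lower and 1 higher (median -1.52). Values for vector and eIF4E cells were -2.69 and -2.34 for FBN2 (a fibrillin), -1.91 and -2.39 for COL1A1 (type I collagen), -1.80 and -2.03 for THBS1 (thrombospondin) and -1.71 and -2.64 for TNC (tenascin). THBS2 was the ligand higher in eIF4E cells (1.78 ± 0.51, adjusted p = 0.00831) and was named after its value was seen. It had 13, 4 and 7 counts in the eIF4E input libraries, and exons of THBS2-AS1 lie opposite 31.2% of its exon length.

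Of 36 integrin adaptors and adhesion site proteins 34 were tested, with 12 lower and 3 higher in vector cells (median -0.67) and 16 lower and 4 higher in eIF4E cells (median -0.89). Over all genes 21.0% were lower and 18.5% higher in vector cells, and 23.3% lower and 21.9% higher in eIF4E cells. TLN1, the talin that binds integrin beta tails, differed by -2.53 ± 0.27 (adjusted p = 2.62e-06) and -2.91 ± 0.28 (adjusted p = 6.77e-07). The actin crosslinker FLNA (-2.64 and -3.20) and the tensin TNS3 (-2.10 and -2.42) were lower in both. Those higher, named after their values were seen, were FERMT3 (a kindlin known from blood cells, 1.55 and 1.24), ILK (integrin-linked kinase, 0.93 and 0.76) and KRIT1 (2.31 and 1.39) in both, and ITGB1BP1 (an inhibitor that binds the ITGB1 tail) in eIF4E cells at 1.57 beside 0.56 in vector cells. KRIT1 had 3, 1 and 6 counts in the vector input libraries, near the floor of 3 counts, so the size of its value in vector cells is uncertain. Exons of other genes lie opposite 78.5% of the exon length of ILK and 33.2% of that of ITGB1BP1. Membrane partners of integrins were near 0, with 2 of 10 tested higher in vector cells (CD63 at 0.98 and PLAUR at 0.81) and 3 lower in eIF4E cells (TSPAN4, CD81 at -0.88 and CD151, the tetraspanin that binds ITGA3, at -0.71), with medians of 0.15 and 0.04, where 18.5% of all genes were higher in vector cells and 23.3% lower in eIF4E cells.

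eIF4E and vector cells were then compared within each fraction. In input no laminin or integrin row passed, where 0.53% of all genes did (0.104% higher and 0.425% lower), and 8 of the 24, beside 1683 of all 12460 genes, had an unadjusted p under 0.05. DESeq2 also called none of the rows. The median difference was 0.00, beside -0.05 over all genes, and it was 0.52 without vector input replicate 3. The smallest p belonged to ITGA3, at a log2 difference of 1.12 ± 0.34 (adjusted p = 0.145), with every eIF4E input library (298 to 661 CPM) above every vector input library (167 to 266 CPM). LAMB3 followed at 1.23 ± 0.40 (adjusted p = 0.170), where the eIF4E libraries (108 to 281 CPM) overlapped the vector libraries (47.8 to 121 CPM). LAMC3 stood at 1.47 ± 0.55 (adjusted p = 0.240) and ITGB1 at -0.80 ± 0.31 (adjusted p = 0.256). Without the filter on low counts ITGA3 and LAMB3 were called, at 1.22 ± 0.31 and 1.34 ± 0.32. They were also called with the tag shared by library titles as a block, at 1.07 ± 0.24 and 1.23 ± 0.23. The residuals of the input libraries did not follow that tag, and more of all genes were called under it too.

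ITGB2, the beta subunit of the leukocyte integrins, had too few counts for the test. It had 0, 0 and 0 counts in vector input and 5, 11 and 4 in eIF4E input, at least 5.94-fold higher in eIF4E input against a floor of 3 counts over the vector group. Its Cap IP counts were 2, 0 and 2 for vector libraries, and for eIF4E libraries they were 3, 5 and 4. Without the filter it was called in input as well. The row ITGB2-AS1, whose exons lie opposite 4.2% of the exon length of ITGB2, stood at 1.94, 2.67 and 2.95 CPM in vector input and 5.53, 9.29 and 15.6 CPM in eIF4E input, without overlap, at a log2 difference of 1.93 ± 0.54 (adjusted p = 0.121), and it was named after its values were seen.

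In Cap IP again none of the 24 rows passed, where 0.225% of all genes did (0.0803% higher and 0.144% lower), and 1, beside 1146 of all 12460 genes, had an unadjusted p under 0.05. DESeq2 called none of the rows. With the tag shared by library titles as a block, which the residuals of the Cap IP libraries followed, 155 genes were called in place of 28 and still none of these rows. The median difference was -0.22, beside -0.01 over all genes, and its direction turned to 0.31 without vector Cap IP replicate 3. ITGA6 was the row with the smallest p, at 1.30 ± 0.40 (adjusted p = 0.268), with 18.5, 24.1 and 31.7 CPM in eIF4E Cap IP above 8.75, 6.31 and 14.0 in vector Cap IP. ITGA3 stood at 0.64 ± 0.35 (adjusted p = 0.614), and the values of ITGB8 and ITGA7 were -0.80 and -0.74. Without vector Cap IP replicate 3 these were -0.09 and 0.58. Of the partner lists, LTBP1, which binds latent TGF-beta, was lower in eIF4E input (-2.20 ± 0.47, adjusted p = 0.0374). No other partner was called in input and none in Cap IP.

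**Figure D3:**
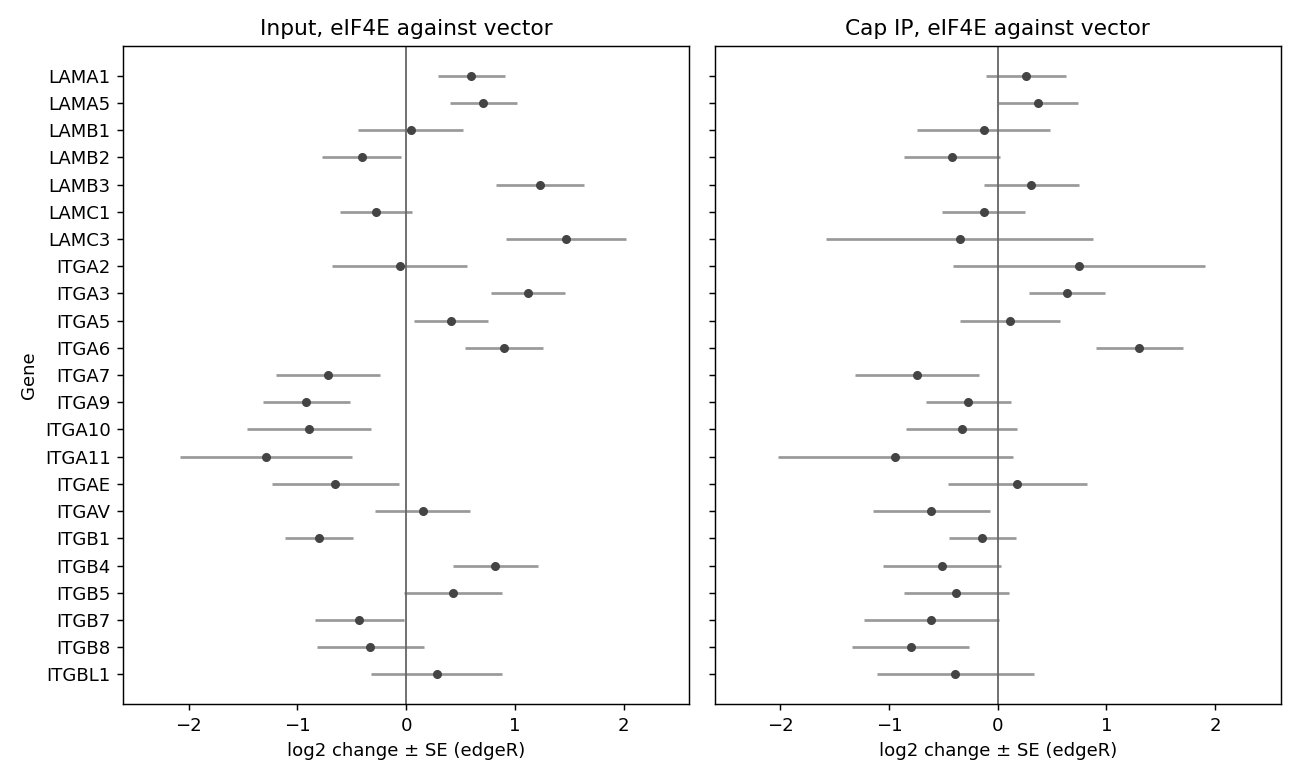
Log2 difference of eIF4E against vector cells for 23 of the 24 tested rows in input (left) and in Cap IP (right), as points with bars of 1 SE from edgeR. In input ITGA3 (1.12) and LAMB3 (1.23) lie right of 0 and ITGB1 (-0.80) left of it, and in Cap IP ITGA6 (1.30) lies furthest right; no adjusted p was under 0.05.

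The change of Cap IP over input from vector to eIF4E cells was tested directly. With a mean per group, no row and no gene at all passed (0.0% of 12460). An unadjusted p under 0.05 was found for 0 of the 24 rows and 728 of all genes. With the culture as a block some genes passed, but none of the 24 rows. DESeq2 called none of the 24. The smallest p was that of ITGB4, at -1.34 ± 0.66 (adjusted p = 0.833), whose log2 Cap IP over input was -1.45, -1.56 and -1.12 in the vector cultures and -2.39, -2.16 and -2.73 in the eIF4E cultures. LAMB3 had -0.87, -1.16 and -1.14 in vector and -1.94, -2.02 and -2.03 in eIF4E cultures, a tested difference of -0.92 ± 0.59 (adjusted p = 0.848). For both genes the cultures of the 2 kinds did not overlap, as was also so for ITGA10, ITGB5 and LAMC3. Such separation was not counted over all genes, so it does not show that these rows differ from genes at large. ITGB1 stood at 0.66 ± 0.44 (adjusted p = 0.851) and LAMC3 at -1.82 ± 1.41 (adjusted p = 0.874). With 1 library left out the value of ITGB4 ranged from -1.66 to -0.68 (lowest in size without vector Cap IP replicate 3), that of LAMC3 from -2.57 to -0.88 (without vector Cap IP replicate 1) and that of ITGB1 from 0.27 (without vector input replicate 3) to 0.89. The calls made in 1 kind of cell only (ITGA2, ITGA9, ITGB1, ITGB5 and LAMC3) are therefore not shown to differ between them, and with the culture as a block ITGA9, ITGB1 and ITGB5 were called in vector cells too.

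Rows on the opposite strand were set beside these values, since the kit marks strand but no source used here says whether the counting used it. Their part in the values was not tested. Of the 24 tested rows 14 have exons opposite another annotated gene. A row of such a gene was matched in the count table for 6 of them (ITGA7, ITGA9, ITGB7, ITGBL1, LAMA5 and LAMB1), and none was matched for the other 8, among them ITGA10 and ITGB1. The 10 without such exons all stood below 0 in both kinds of cells, with 6 called lower in vector and 7 in eIF4E cells and none higher. The few rows called higher (ITGA9, ITGA10 and ITGB1) were among the 14. Over all genes 21.0% were lower and 18.5% higher in vector cells, and 23.3% lower and 21.9% higher in eIF4E cells. All genes were not split by opposite exons, so whether this split differs from genes at large was not tested. LAMA5 had 3349 counts, and on its opposite strand LAMA5-AS1 had 1695 and ADRM1, a proteasome ubiquitin receptor gene, 3552. Exons of those genes lie opposite 2.5% of its exon length. LAMA5-AS1 stood at -0.15 ± 0.33 (adjusted p = 0.740) and 0.17 ± 0.32 (adjusted p = 0.692) for Cap IP against input, and ADRM1 at 0.04 and -0.34, so neither followed LAMA5. ITGBL1 had 112 counts where FGF14, opposite 70.5% of its exon length, had 2935. FGF14 was higher in Cap IP in both kinds of cells (0.95 ± 0.33 and 1.87 ± 0.34), and ITGBL1 stood at 0.24 and -0.42. For ITGA10, ITGA9 and ITGB1 the opposite exons cover 2.0%, 9.2% and 2.8% of the exon length, and ITGA9-AS1 had 23 counts beside 440 for ITGA9.

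**Figure D4:**
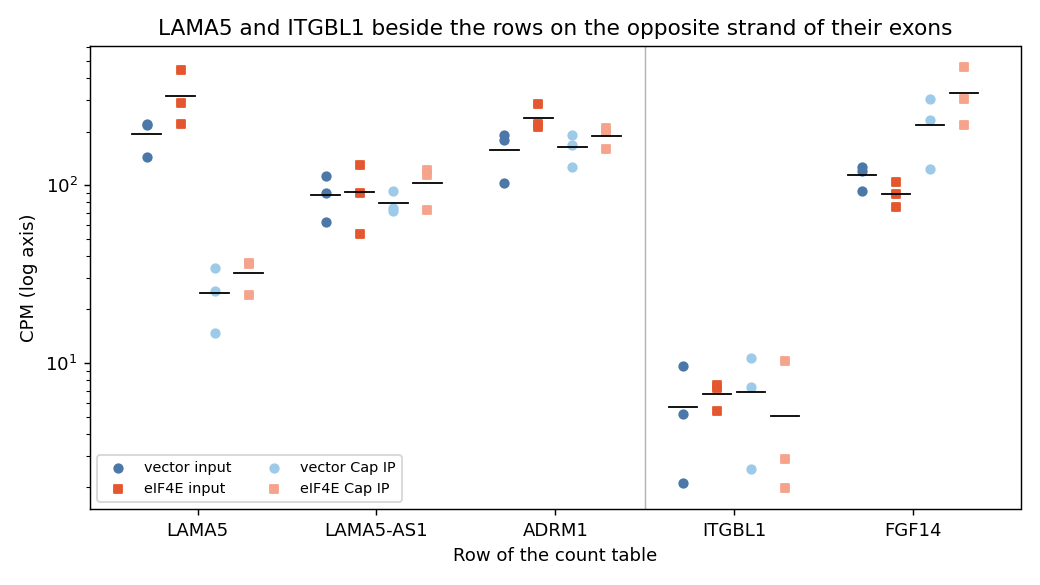
CPM on a log axis in all 12 libraries, with a line at the mean of 3, for LAMA5 and the rows LAMA5-AS1 and ADRM1 opposite it, and for ITGBL1 and the row FGF14 opposite it. LAMA5 falls from 143 to 443 CPM in input to 14.7 to 36.7 CPM in Cap IP while LAMA5-AS1 stays between 53.3 and 129 CPM, and FGF14 lies above ITGBL1 in every library.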

How the data were processed

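The authors deposited raw counts per gene name for all 12 libraries in 1 table. Per the labels, libraries were made with a stranded KAPA RNA HyperPrep kit with rRNA removal and read in 75 single-end cycles. Per the submitters' processing notes, STAR 2.5.1b, GRCh38.p5, featureCounts 1.4.5-p1 and DESeq2 were used. No source used here gives the annotation or the strand setting. Library totals were 1206321 to 1813486.

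Counts were kept by filterByExpr (12460 genes), scaled with TMM (factors 1.17 to 1.49 in input, 0.667 to 0.891 in Cap IP) and fitted with edgeR 4.0.16 (R 4.3.3) with a mean per group over all 12 libraries. In each of 5 comparisons p-values were adjusted by Benjamini-Hochberg over all genes tested, with calls under 0.05. Each SE is the absolute log2 change over the square root of F. The procedure was run on simulated data in which few genes changed. Many genes differed between Cap IP and input, so that simulation does not test the scaling of this comparison. The rule for genes named with their tests was every laminin or integrin row called in a comparison, otherwise the 4 with the smallest p, and up to 4 per partner list. The gene set and lists were chosen with earlier results of these data known.

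Residuals from group means correlated between libraries of 1 title stem at 0.43, 0.27 and 0.44 in vector and 0.35, 0.08 and 0.11 in eIF4E cells, and between libraries of 1 title tag at 0.18, 0.01 and -0.04 for input libraries and at 0.20, 0.16 and 0.30 for those of Cap IP. By a rule that every pair exceeds 0.1, the stem pairs the vector libraries and the tag the Cap IP libraries. Positions, exon lengths and opposite exons came from GENCODE 44 (GRCh38), whose gene names were matched to the rows, and promoters from RefSeq (GRCh38.p14). Alternatives were DESeq2 1.42.0 as test or scaling, total counts, other count filters, fewer groups, blocks and leave-outs. A few genes that the rule names are not reported here by name or plotted, and they stay in the counts and medians.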

Additional observations from a re-analysis of the deposited data

How the results depend on the processing

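At these library totals, rows near 3 counts could not be told from absent. The median of the 24 rows for Cap IP against input kept its sign under every alternative run, and with total counts it was -1.82 in vector and -2.23 in eIF4E cells. Counts moved more. Over all genes, eIF4E against vector in input called 66 genes, 11 with total counts, 318 with no filter, 32 with a filter of 50 counts in 3 libraries, 18 with only the groups compared, 151 with DESeq2, 462 with the tag as a replicate block and 7 to 109 with 1 library left out. In Cap IP 28 became 204, 18, 6, 75 and 155 with no filter, the 50-count filter, only the groups compared, DESeq2 and the tag block, and 0 to 30 with 1 library left out. Laminin and integrin rows called higher in input went from 0 to 3 with no filter and to 2 (ITGA3 and LAMB3) with the tag block, although the tag did not pair the input libraries. Rows called higher in vector Cap IP went from 1 to 0 with total counts or the 50-count filter, 2 with only the groups compared, 3 with the culture block and 0 to 2 with 1 library left out. In eIF4E cells 3 became 0 with total counts and 1 with the 50-count filter, which left ITGA9 and ITGA10 untested in both kinds of cells. All genes called for Cap IP against input fell from 4921 to 2949 and from 5625 to 3432 under the 50-count filter, which tests fewer genes. For the difference between kinds of cells, 0 became 3 with no filter and 51 with the culture block. In eIF4E cells the culture block added 2 calls, ITGAV among them, to the 15, and it changed no call of the 24 rows for the difference. The value of ITGA7 for eIF4E against vector in Cap IP, -0.74, ranged from -1.13 to 0.58 with 1 library left out and was positive without vector Cap IP replicate 3. Other causes were not tested.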
